A study of Mus musculus with 10 samples.

Results

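The 38 genes described here encode glycolytic enzymes, glucose and lactate transporters, the hypoxia-inducible factors (HIFs) and targets of these factors. They were taken by gene symbol from the 57010 Ensembl genes of a table of read counts, and all 38 were found. Of these, 21 were treated as glycolytic and 17 as non-glycolytic HIF genes, and the sets were kept apart. Expression was measured by poly(A) RNA sequencing of whole mammary tumour tissue from mice carrying MMTV-PyMT, a transgene that drives a viral oncogene in the mammary epithelium. The knockout (KO) group held 5 libraries of genotype RHBDL4 -/- and the wild-type (WT) group 5 libraries of genotype RHBDL4 +/+. All 10 carried PyMT, none was treated, and the tumours were taken 5 weeks after onset. The protein RHBDL4, whose gene is Rhbdd1, belongs to the rhomboid proteases and sits in the membrane of the endoplasmic reticulum. Age, sex and strain are not given in the labels used here.

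In glycolysis, glucose is taken up, phosphorylated and split into 3-carbon sugars, and these are converted to pyruvate, which is either oxidised in mitochondria or reduced to lactate and exported. The HIF alpha subunits, encoded by Hif1a and Epas1, are hydroxylated by the EGLN oxygen sensors and degraded when oxygen is available. In hypoxia they accumulate, bind promoters and enhancers at a short core sequence, and raise transcription of most glycolytic genes together with genes for pH control, mitophagy, collagen modification and angiogenesis. Solid mammary tumours commonly hold poorly perfused regions in which this programme runs. HIF alpha itself is controlled mostly through protein stability, which RNA counts do not measure.

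The promoters below are shown because they belong to the glycolytic genes Pdk1, Ldha and Pgk1 and the non-glycolytic target Ankrd37, whose values are followed most closely. Each is the 250 bases before a transcription start listed by RefSeq for the GRCm38.p6 assembly, read 5′ to 3′ on the gene's strand, and capitals mark every match to the HIF core (ACGTG or GCGTG, and CACGT or CACGC for the other strand). The coordinates are chr2:71872974-71873223 on the plus strand for Pdk1, chr7:46845554-46845803 on the plus strand for Ldha, chrX:106186850-106187099 on the plus strand for Pgk1 and chr8:45999851-46000100 on the minus strand for Ankrd37.
Pdk1: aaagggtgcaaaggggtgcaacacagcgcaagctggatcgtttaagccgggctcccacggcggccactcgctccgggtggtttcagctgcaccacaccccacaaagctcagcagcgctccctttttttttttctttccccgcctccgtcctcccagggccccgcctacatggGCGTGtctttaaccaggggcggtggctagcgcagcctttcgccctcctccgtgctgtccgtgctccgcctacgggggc
Ldha: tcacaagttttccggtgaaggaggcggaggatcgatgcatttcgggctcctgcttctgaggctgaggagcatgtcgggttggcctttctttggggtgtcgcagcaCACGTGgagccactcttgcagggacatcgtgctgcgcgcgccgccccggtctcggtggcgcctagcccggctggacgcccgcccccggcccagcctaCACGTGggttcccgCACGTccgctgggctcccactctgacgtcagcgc
Pgk1: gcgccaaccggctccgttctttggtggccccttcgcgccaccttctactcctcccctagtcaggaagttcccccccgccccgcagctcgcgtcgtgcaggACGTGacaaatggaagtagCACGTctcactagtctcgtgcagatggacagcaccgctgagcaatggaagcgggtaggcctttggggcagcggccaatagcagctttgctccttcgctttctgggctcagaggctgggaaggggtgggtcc
Ankrd37: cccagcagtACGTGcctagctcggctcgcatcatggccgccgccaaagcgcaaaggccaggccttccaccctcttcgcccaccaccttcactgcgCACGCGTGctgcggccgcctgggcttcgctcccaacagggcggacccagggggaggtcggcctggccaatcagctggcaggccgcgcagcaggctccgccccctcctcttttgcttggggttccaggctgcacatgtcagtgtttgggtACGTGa
Where RefSeq lists more than 1 start, the window with the most matches is shown. For Pdk1 and for Ldha the window of the other start held 0 and 1 matches and is not shown. Pdk1 held 1 match, beginning 78 bases before the start. Ldha held 5, of which 4 are pairs that overlap because CACGTG reads as a match on both strands. These pairs begin 145 and 48 bases before the start, and the single match begins 34 bases before it. Pgk1 held 2 matches, at 150 and 131 bases, and Ankrd37 held 4, at 241, 155, 152 and 6 bases, the pair at 155 and 152 overlapping. RefSeq promoters were found for 34 of the 38 genes, and 30 of these (88.24%) held at least 1 match, against 41.54% of the 27025 genes with a promoter entry. A gene was counted where any of its starts had a match, and over single promoters the share was 37 of 48 (77.08%) for the members, against 38.6% of 32851. The share was 18 of 21 in the glycolytic set and 12 of 13 in the non-glycolytic set. The promoters of the members were also richer in G and C, with a median of 62.8% against 52.4% over all entries, and the part of base composition in that share was not tested. The list was also made to hold HIF targets, so the higher share of matches is no test of these data. Such a match is a run of letters, not a measured binding site. Angptl4, Epas1, Ndrg1 and Bnip3l had no entry.

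Total depth ran from 25.7 to 43.3 M counts per library, and levels are given as CPM, a gene's counts for each M counts of its library after TMM scaling. CPM is not corrected for gene length, so levels are compared between libraries and not between genes. As a check of the labels, Rhbdd1 (ENSMUSG00000026142) stood at 22.3, 15.1, 17.3, 13.2 and 16.8 CPM in KO replicates 1 to 5. WT replicates 1 to 5 had 45.4, 38.6, 33.7, 33.5 and 25.0 CPM, with no overlap after scaling. The TMM factor was 0.588 in WT replicate 5 and 1.01 to 1.10 in the other libraries. Without scaling, WT replicate 5 had 14.6 CPM, inside the span of the KO values, so its place above them depended on the scaling. The Rhbdd1 log2 fold change was -1.05 ± 0.20 (SE) with all libraries and -1.14 ± 0.16 without WT replicate 5 (edgeR adjusted p = 0.669 and 0.113). WT replicate 5 stood apart from the other libraries: 18 skeletal muscle markers summed to 9.83% of its counts, against 0.00166 to 0.195% in KO libraries and 0.00146 to 0.0125% in the other WT libraries. In the same library 17 of 17 luminal epithelium markers were at their lowest, with a sum of 0.0108%, against 0.602 to 0.991% in KO and 0.677 to 0.780% in WT replicates 1 to 4, although it is labelled as tumour tissue. The fits are therefore given with all 10 libraries and again with the 9 that leave out WT replicate 5. For members described by their means, WT means are given without that library and the fold changes of both fits are plotted. In whole tissue, fewer cells of a type and less RNA per cell cannot be told apart. KO replicates 3 and 4, WT replicates 1 and 2, and WT replicates 3 and 4 are 3 pairs whose library names begin with the same number, and whether it marks a mouse is not stated. No other label links a library to an animal, so a p-value reflects only the spread among these libraries, some of which may be technical. The batch label differed in every library, so if it marks batches, batch and genotype cannot be told apart.

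The question put to the data was whether the glycolytic and the non-glycolytic HIF genes differ between KO and WT tumours. No gene of either set passed the test: at an adjusted p under 0.05 in edgeR's quasi-likelihood test, 0 of 38 genes were called with all 10 libraries and 0 of 38 with 9. The background was low as well, with 0% of 18577 genes called with 10 libraries and 0.0105% of 19016 with 9. All 38 genes had passed the filter on low counts in both fits. DESeq2 called 0.291% and 2.43% of all genes in the 10-library and 9-library fits, and limma-voom with sample quality weights 0.0915% and 0.747%, and both called 0 of the 38 in either fit.

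Most glycolytic genes had a log2 fold change (KO over WT) below 0, both with and without WT replicate 5, though by amounts that depended on single libraries. With 10 libraries this held for 17 of 21, with a median of -0.68 and a range of -2.27 to 0.47, beside 56.2% of all genes and a median of -0.06. With 9 libraries it held again for 17 of 21, with a median of -0.30 and a range of -0.84 to 0.50, beside 46.8% of all genes and a median of 0.03. At an unadjusted p under 0.05 the set held 7 genes with 10 libraries, namely Pdk1, Pgk1, Aldoa, Ldha, Hk2, Pfkl and Tpi1, and 3 with 9 libraries, namely Pdk1, Ldha and Pfkl. All had negative fold changes, a direction in which 4.44% and 5.85% of all genes had such a p in the 10-library and 9-library fits. When WT replicate 1 was left out of the 9 as well, 13 of 21 were negative, with a median of -0.11, and 0 had an unadjusted p under 0.05. Other omissions from the 9 moved the median away from 0. It was -0.47 without KO replicate 3 and -0.43 without WT replicate 3, each with 18 of 21 negative, beside 46.6% and 46.7% of all genes. The lowest adjusted p of the set was 0.669 with 10 libraries and 0.352 with 9 (edgeR).

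The non-glycolytic set leaned the same way by a smaller amount. With 10 libraries 13 of 17 genes had a negative log2 fold change, with a median of -0.23 and a range of -1.18 to 0.38. With 9 libraries it was 12 of 17, with a median of -0.12 and a range of -1.22 to 0.81. Over all genes 56.2% were negative with 10 libraries and 46.8% with 9, with medians of -0.06 and 0.03. When WT replicate 1 was also left out, 8 of 17 were negative and the median was 0.04, close to the 46.3% and 0.03 of all genes. Leaving out KO replicate 3 or WT replicate 3 from the 9 instead gave 15 of 17 negative in each case. The medians were then -0.40 and -0.30, beside 0.02 and 0.03 over all genes. Ankrd37 alone of the 17 had an unadjusted p under 0.05 (edgeR), in both fits. That is near the 4.44% and 5.85% of all genes with such a p and a negative fold change. The difference between the sets was not tested.

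**Figure D1:**
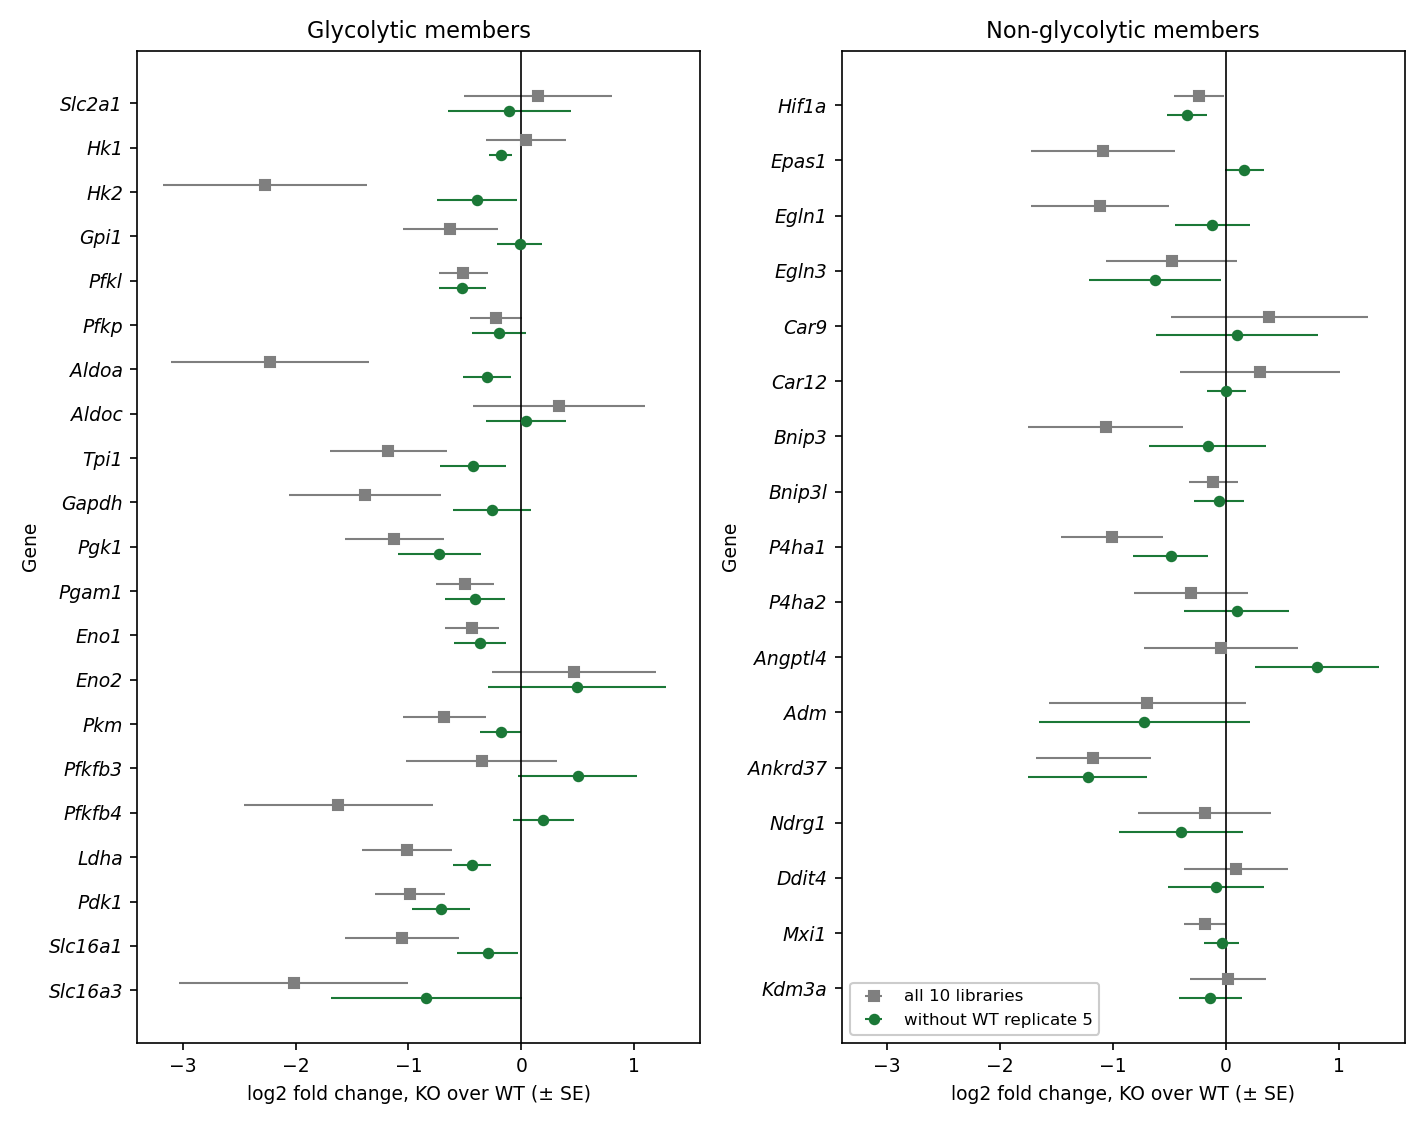
Log2 fold change (KO over WT, x axis) with its standard error for each of the 21 glycolytic genes (left) and 17 non-glycolytic genes (right), with grey squares for all 10 libraries and green circles for the 9 without WT replicate 5. Most points lie left of 0 in the glycolytic panel, and without WT replicate 5 the lowest glycolytic value is -0.84 (Slc16a3) in place of -2.27 (Hk2).

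No gene of the 38 separated the genotypes library by library. With all 10 libraries 0 of 38 had KO and WT values that did not overlap, beside 1.99% of all genes. With WT replicate 5 left out it was again 0 of 38, beside 5.62% of all genes.

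Among genes of glucose uptake and the first steps, Slc2a1 (ENSMUSG00000028645), the glucose transporter GLUT1, had 81.9, 99.3, 378, 196 and 62.1 CPM in KO libraries, against 287, 203, 87.0, 137 and 24.8 CPM in WT libraries. KO replicate 3 was the highest library, WT replicate 5 was below all others, and WT replicates 1 to 4 lay inside the KO range. Its log2 fold change was 0.15 ± 0.65 (SE) with 10 libraries and -0.11 ± 0.55 with 9 (edgeR adjusted p = 0.952 and 0.955).

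Hk1 (ENSMUSG00000037012), the hexokinase of most tissues, had 270.2, 289.6, 256, 217 and 296 CPM in KO libraries, against 295, 332, 300.1, 295 and 67.8 CPM in WT libraries. WT replicates 2 and 3 were above every KO library, WT replicates 1 and 4 inside the KO range and WT replicate 5 below it. Its log2 fold change came to 0.04 ± 0.35 with 10 libraries and -0.18 ± 0.10 with 9 (edgeR adjusted p = 0.974 and 0.524). Hk2 (ENSMUSG00000000628), the hexokinase of muscle and many tumours, had 42.5, 36.9, 47.4, 44.8 and 21.5 CPM in KO libraries, against 70.5, 78.1, 25.0, 32.1 and 728 CPM in WT libraries. WT replicate 5 exceeded the next highest library 9.33-fold, WT replicates 1 and 2 were above every KO library, and WT replicates 3 and 4 were inside the KO range. The Hk2 log2 fold change of -2.27 ± 0.90 with 10 libraries was -0.39 ± 0.36 with 9 (edgeR adjusted p = 0.669 and 0.691). Of the 9, leaving out WT replicate 1 gave -0.20 and leaving out WT replicate 2 gave -0.12, and the part of the muscle RNA in WT replicate 5 was not tested.

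Pfkl (ENSMUSG00000020277), the liver-type subunit of phosphofructokinase, which commits sugar to glycolysis, had 341, 338, 295, 229.9 and 363 CPM in KO libraries, against 681, 424, 345, 372 and 413 CPM in WT libraries. WT replicate 3 lay inside the KO range and the other 4 WT libraries were above every KO library, with WT replicate 5 among them rather than at the edge. Without scaling, Pfkl in WT replicate 5 was 240 CPM, inside the KO range, so its place there depended on the scaling. In the fits this gave a log2 fold change of -0.51 ± 0.22 with 10 libraries and -0.52 ± 0.21 with 9 (edgeR adjusted p = 0.669 and 0.393), and -0.27 when WT replicate 1 was left out of the 9. Pfkp, the platelet-type subunit, averaged 99.5 ± 31.4 CPM in KO and 115 ± 18.3 CPM in WT without replicate 5 (SD, n = 5 and 4). Gpi1, which converts glucose 6-phosphate to fructose 6-phosphate, averaged 423 ± 82.7 CPM in KO and 432 ± 119 CPM in those 4 WT libraries. These means lay within 1 SD of each other.

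Pfkfb3 and Pfkfb4 encode enzymes that set fructose 2,6-bisphosphate, the activator of phosphofructokinase. Pfkfb3 averaged 70.0 ± 43.2 CPM in KO and 50.2 ± 33.1 CPM in WT without replicate 5, where its highest value was 141 CPM in KO replicate 3. Pfkfb4 averaged 3.93 ± 1.12 CPM in KO and 3.47 ± 0.542 CPM in those WT libraries. In WT replicate 5 the Pfkfb3 level was 245 CPM and the Pfkfb4 level 46.9 CPM, above every other library.

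In the middle of the pathway, Aldoa (ENSMUSG00000030695), the aldolase of muscle and most tissues, had 881, 1222, 959, 1094 and 739 CPM in KO libraries, against 1822, 1049, 933, 1090.5 and 18048 CPM in WT libraries. WT replicate 5 exceeded the next highest library 9.91-fold, WT replicate 1 was above every KO library, and WT replicates 2 to 4 were inside the KO range. KO over WT, the log2 fold change was -2.23 ± 0.88 with 10 libraries and -0.30 ± 0.22 with 9 (edgeR adjusted p = 0.669 and 0.608), and -0.051 when WT replicate 1 was also left out. Aldoc, the brain-type aldolase, averaged 267 ± 127 CPM in KO and 262 ± 88.0 CPM in WT without replicate 5, and stood at 5.14 CPM in that library. Tpi1, which interconverts the 3-carbon sugars, averaged 444 ± 129 CPM in KO and 605 ± 245 CPM in WT without replicate 5. Gapdh, which oxidises the 3-carbon sugar and is often used as a constant standard, averaged 846 ± 289 CPM in KO and 1028 ± 513 CPM in WT without replicate 5. In that library Gapdh reached 6959 CPM, and in KO it ranged from 540.1 to 1221 CPM. Tpi1 had -1.18 ± 0.52 on the log2 scale with 10 libraries and -0.43 ± 0.29 with 9, and Gapdh -1.39 ± 0.67 and -0.26 ± 0.35.

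Pgk1 (ENSMUSG00000062070), which makes the first ATP of the pathway, had 235, 167, 325, 276 and 132 CPM in KO libraries, against 582, 494, 182, 266 and 950.1 CPM in WT libraries. WT replicates 1, 2 and 5 were above every KO library, and WT replicates 3 and 4 were inside the KO range. The fitted log2 fold change was -1.12 ± 0.44 with 10 libraries and -0.73 ± 0.37 with 9 (edgeR adjusted p = 0.669 and 0.484), and -0.45 when WT replicate 1 was left out of the 9.

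Of the later enzymes, Pgam1, a phosphoglycerate mutase, averaged 73.3 ± 18.5 CPM in KO and 98.8 ± 37.2 CPM in WT without replicate 5. Eno1, the main enolase, averaged 733 ± 182 CPM in KO and 957 ± 290.2 CPM in those WT libraries, and Pkm, pyruvate kinase, 1103 ± 249.9 CPM in KO and 1269 ± 242 CPM in WT. In the 9-library fit the log2 fold changes of Pgam1, Eno1 and Pkm were -0.41 ± 0.26, -0.37 ± 0.23 and -0.18 ± 0.18 (edgeR adjusted p = 0.569, 0.563 and 0.718). Eno2, the neuronal enolase and a HIF target, spread widely, with 6.15, 5.58, 40.2, 11.2 and 3.33 CPM in KO libraries, against 18.7, 11.8, 2.73, 5.21 and 9.74 CPM in WT libraries. Some of these genes have near-identical processed copies. Of all 75-base windows of the transcript, 80.3% recur in another gene for Gapdh, 67.5% for Pgk1, 65.4% for Eno1, 40.6% for Pgam1 and 19.6% for Pkm (GENCODE annotation of GRCm38). The sources used here do not say how reads with several matches were counted, so counts of these 5 genes are uncertain. Exons of 13 of the 38 genes also overlap a gene on the opposite strand in that annotation, and the strand setting of the counting is not stated.

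The fate of pyruvate is set by lactate dehydrogenase and by the kinases of pyruvate dehydrogenase. Ldha (ENSMUSG00000063229), which reduces pyruvate to lactate, had 878, 1301, 1162, 1293 and 894 CPM in KO libraries, against 1875, 1247, 1365, 1561 and 5112 CPM in WT libraries. WT replicate 2 lay inside the KO range and the other 4 WT libraries were above every KO library. This corresponded to a log2 fold change of -1.01 ± 0.40 with 10 libraries and -0.43 ± 0.17 with 9 (edgeR adjusted p = 0.669 and 0.380).

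Pdk1 (ENSMUSG00000006494), the kinase that shuts pyruvate dehydrogenase and so keeps pyruvate from the mitochondria, had 50.7, 39.5, 55.5, 49.2 and 36.6 CPM in KO libraries, against 100.1, 107, 45.5, 55.3 and 152 CPM in WT libraries. WT replicates 1, 2 and 5 were above every KO library, and WT replicates 3 and 4 were inside the KO range. The log2 fold change was -0.99 ± 0.31 with 10 libraries and -0.71 ± 0.26 with 9. Its edgeR p was the lowest of the 38 in both fits, at 0.00978 and 0.0196 before adjustment and 0.669 and 0.352 after it.

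The monocarboxylate transporters Slc16a1 (MCT1) and Slc16a3 (MCT4) carry lactate across the membrane. Slc16a1 averaged 58.2 ± 16.7 CPM in KO and 72.6 ± 29.2 CPM in WT without replicate 5, and stood at 315 CPM in that library. Slc16a3 spread over more than a power of 10 within each genotype, from 2.68 to 31.2 CPM in KO and from 2.51 to 47.3 CPM in WT without replicate 5. Its log2 value, KO over WT, was -2.02 ± 1.01 with 10 libraries and -0.84 ± 0.85 with 9.

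**Figure D2:**
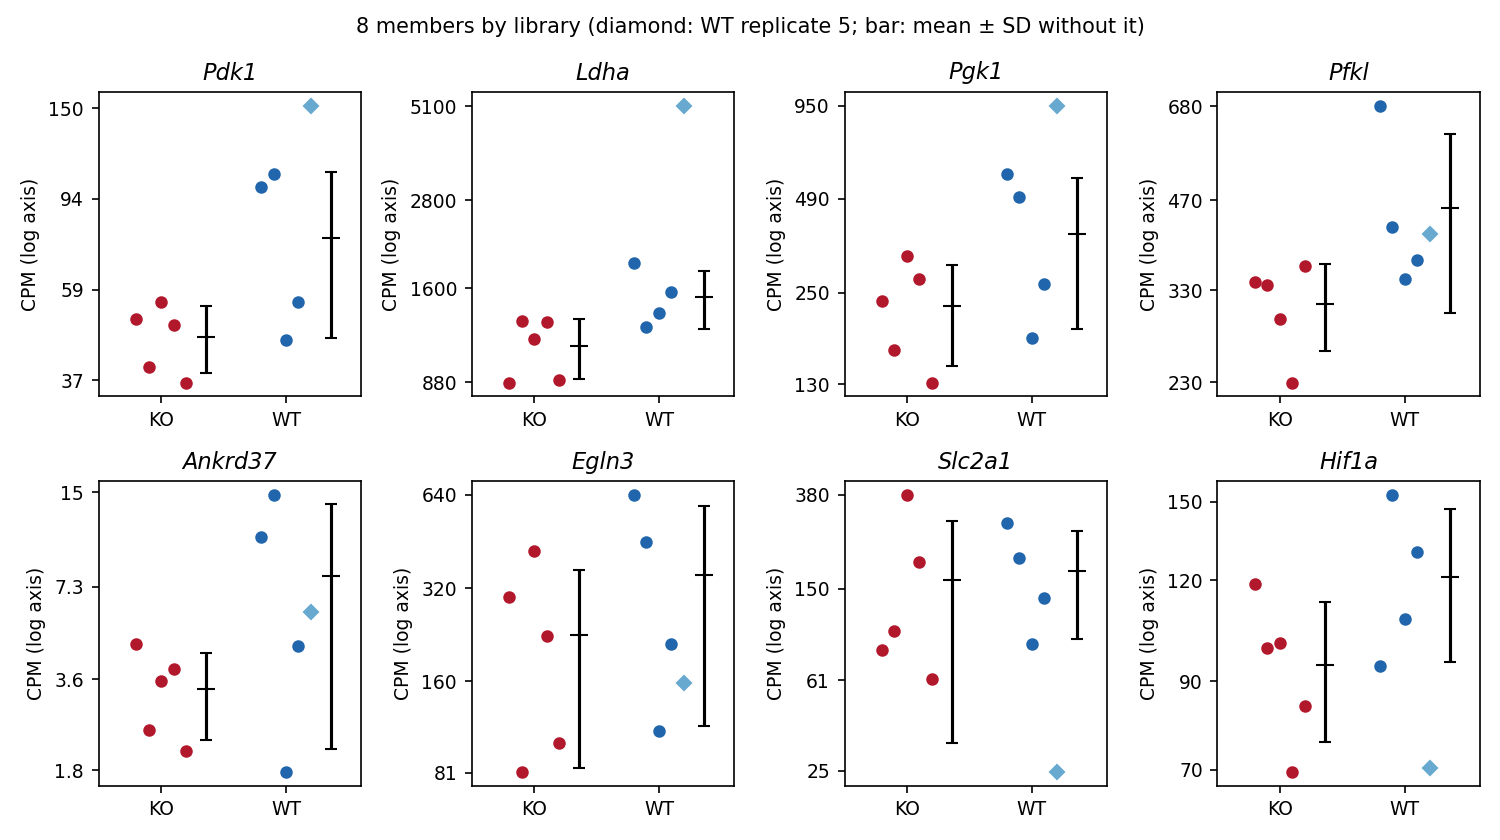
CPM on a log axis for Pdk1, Ldha, Pgk1, Pfkl, Ankrd37, Egln3, Slc2a1 and Hif1a in each KO (red) and WT (blue) library, with WT replicate 5 as a diamond and bars for the mean ± SD without it (n = 5 KO, 4 WT). Every panel shows overlap, with some WT circles level with the KO circles even where the WT mean is higher, as for Pdk1 at 46.3 ± 7.95 CPM in KO and 77.0 ± 31.0 CPM in WT.

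In the non-glycolytic set, the HIF alpha subunits come first. Hif1a (ENSMUSG00000021109) had 119, 98.9, 100.3, 69.6 and 84.0 CPM in KO libraries, against 93.9, 153, 107, 129.9 and 70.3 CPM in WT libraries. WT replicates 2 and 4 were above every KO library and the other 3 inside the KO range. Without scaling, Hif1a in WT replicate 5 was 40.9 CPM, below that range. Its log2 fold change was -0.23 ± 0.22 with 10 libraries and -0.34 ± 0.18 with 9 (edgeR adjusted p = 0.761 and 0.495), and its exons overlap another gene on each strand in the GRCm38 annotation.

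Epas1 (ENSMUSG00000024140), which encodes HIF-2 alpha and is high in endothelium and fat, had 50.9, 79.4, 54.3, 71.5 and 60.5 CPM in KO libraries, against 53.3, 44.4, 65.6, 65.4 and 445 CPM in WT libraries. WT replicate 5 exceeded the next highest library 5.6-fold and WT replicate 2 was below every KO library. Its log2 fold change came to -1.09 ± 0.64 with 10 libraries and 0.16 ± 0.17 with 9 (edgeR adjusted p = 0.670 and 0.733), so its sign turned on that library. Adipocyte markers summed to 1.91% and endothelium markers to 0.0713% of counts in WT replicate 5. They summed to 0.0187 to 0.331% and 0.0207 to 0.0410% in KO libraries, and to 0.0174 to 0.0636% and 0.00882 to 0.0297% in the other WT libraries. All 14 and all 10 of these markers were highest in WT replicate 5, and their part in the Epas1 value was not tested.

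The oxygen sensors that mark HIF alpha for degradation are themselves HIF targets. Egln1 (ENSMUSG00000031987), the main sensor PHD2, had 51.7, 50.8, 105, 82.7 and 39.6 CPM in KO libraries, against 95.6, 95.4, 43.8, 56.0 and 425 CPM in WT libraries. WT replicates 1 to 4 lay inside the KO range and WT replicate 5 above it. In the fits this gave a log2 fold change of -1.11 ± 0.61 with 10 libraries and -0.12 ± 0.33 with 9 (edgeR adjusted p = 0.669 and 0.914). Egln3 (ENSMUSG00000035105), the sensor PHD3, had 299, 81.5, 421, 224 and 101 CPM in KO libraries, against 639, 451, 111, 211 and 158 CPM in WT libraries. WT replicates 1 and 2 were above every KO library and the other 3 inside the KO range. KO over WT, the log2 fold change was -0.48 ± 0.58 with 10 libraries and -0.63 ± 0.58 with 9 (edgeR adjusted p = 0.806 and 0.698), and -0.18 without WT replicate 1 as well.

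Car9 and Car12 encode carbonic anhydrases of the cell surface that control pH in hypoxic tumours. Car9, a widely used hypoxia marker, averaged 49.7 ± 46.2 CPM in KO and 47.0 ± 41.1 CPM in WT without replicate 5. It ranged from 11.2 CPM in KO replicate 2 to 129 CPM in KO replicate 3, a span of 11.6-fold within 1 genotype. Car12 averaged 282 ± 66.7 CPM in KO, with a range of 187 to 339 CPM, and 284 ± 15.5 CPM in WT without replicate 5. It stood at 5.54 CPM in WT replicate 5, in which luminal markers were also lowest.

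Bnip3 (ENSMUSG00000078566), a receptor that directs mitochondria to autophagy, had 18.6, 18.8, 36.3, 30.4 and 8.65 CPM in KO libraries, against 44.7, 33.5, 8.07, 16.2 and 134 CPM in WT libraries. WT replicates 1 and 5 were above and WT replicate 3 below every KO library. The fitted log2 fold change was -1.06 ± 0.69 with 10 libraries and -0.16 ± 0.52 with 9 (edgeR adjusted p = 0.684 and 0.926). Its relative Bnip3l averaged 143 ± 38.4 CPM in KO and 151 ± 36.9 CPM in WT without replicate 5. Near-identical copies hold 15.3% of the Bnip3 windows and 18.7% of the Bnip3l windows, so both counts are uncertain in the same way.

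P4ha1 (ENSMUSG00000019916), a prolyl hydroxylase that stabilises collagen, had 51.6, 43.5, 45.2, 28.3 and 30.5 CPM in KO libraries, against 90.1, 67.8, 25.2, 43.2 and 173 CPM in WT libraries. WT replicates 1, 2 and 5 were above every KO library, WT replicate 4 was inside the KO range and WT replicate 3 below it. This corresponded to a log2 fold change of -1.0 ± 0.45 with 10 libraries and -0.49 ± 0.33 with 9 (edgeR adjusted p = 0.669 and 0.594), and -0.17 without WT replicate 1 as well. P4ha2, which encodes a second such enzyme, averaged 30.2 ± 20.8 CPM in KO and 28.6 ± 13.2 CPM in WT without replicate 5.

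Ankrd37 (ENSMUSG00000050914), a small ankyrin-repeat gene and HIF target, had 4.72, 2.45, 3.56, 3.89 and 2.08 CPM in KO libraries, against 10.6, 14.7, 1.78, 4.63 and 6.01 CPM in WT libraries. WT replicates 1, 2 and 5 were above every KO library, whereas WT replicate 3 was the lowest of the 10. Without scaling, Ankrd37 in WT replicate 5 was 3.50 CPM, inside the KO range. The log2 fold change was -1.18 ± 0.51 with 10 libraries and -1.22 ± 0.53 with 9 (edgeR adjusted p = 0.669 and 0.420). Without WT replicate 2 these values were -0.78 and -0.75. Exons of Lrp2bp and Ufsp2 overlap it on the other strand in the GRCm38 annotation.

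Angptl4 (ENSMUSG00000002289), a secreted inhibitor of lipoprotein lipase made in fat and in hypoxic cells, had 13.0, 61.9, 45.0, 124 and 37.1 CPM in KO libraries, against 19.1, 47.5, 37.8, 25.3 and 159.9 CPM in WT libraries. WT replicates 1 to 4 were inside the KO range and WT replicate 5 above it. Without scaling, Angptl4 in WT replicate 5 was 93.1 CPM, below KO replicate 4. Its log2 fold change came to -0.04 ± 0.68 with 10 libraries and 0.81 ± 0.55 with 9 (edgeR adjusted p = 0.987 and 0.588), and 0.29 when KO replicate 4 was left out of the 9. KO replicates 2 and 4, which had the highest Angptl4 among KO libraries, also had the highest adipocyte marker sums of that group, at 0.331% and 0.295% of counts, and the part of fat in the Angptl4 level was not tested.

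The means of the remaining targets without WT replicate 5 were imprecise or close. Ndrg1, a stress-induced gene, averaged 206 ± 153 CPM in KO and 275 ± 137 CPM in those WT libraries. Ddit4, an inhibitor of mTORC1 signalling, averaged 171 ± 99.6 CPM in KO and 184 ± 69.7 CPM in WT, and Adm, the vasodilator adrenomedullin, 27.4 ± 33.7 CPM in KO and 45.9 ± 43.4 CPM in WT. Each of these differences was smaller than 1 SD. Mxi1, a MYC antagonist, averaged 66.9 ± 12.5 CPM in KO and 69.4 ± 11.5 CPM in WT, and Kdm3a, a histone demethylase, 83.3 ± 21.8 CPM in KO and 92.9 ± 38 CPM in WT.

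Libraries of the same genotype also differed in both sets. The mean log2 CPM of the 21 glycolytic genes was 7.11, 6.91, 7.59, 7.27 and 6.66 in KO replicates 1 to 5, against 7.97, 7.62, 6.74, 7.15 and 8.48 in WT replicates 1 to 5. For the 17 non-glycolytic genes it was 5.73, 5.43, 6.57, 6.06 and 5.26 in KO replicates 1 to 5, against 6.60, 6.47, 5.31, 5.78 and 6.00 in WT replicates 1 to 5. Across single genes, WT replicate 1 was the highest of the 9 libraries without WT replicate 5 in 18 of 38 genes (14.8% of all genes) and KO replicate 3 in 9 of 38 (14.9%), and KO replicate 5 was the lowest in 13 of 38 (11.1%). In both sets' means KO replicate 3, WT replicate 1 and WT replicate 2 were likewise the highest, and KO replicate 5 was the lowest. Without WT replicate 5, KO minus WT was -0.26 for the glycolytic and -0.23 for the non-glycolytic mean, against pooled SDs of 0.44 and 0.56. The median gene of the glycolytic set spanned 2.13-fold within KO and 2.26-fold within WT without replicate 5, and that of the non-glycolytic set 2.67-fold and 2.53-fold. Over all genes tested these medians were 1.85-fold in KO and 1.54-fold in WT.

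**Figure D3:**
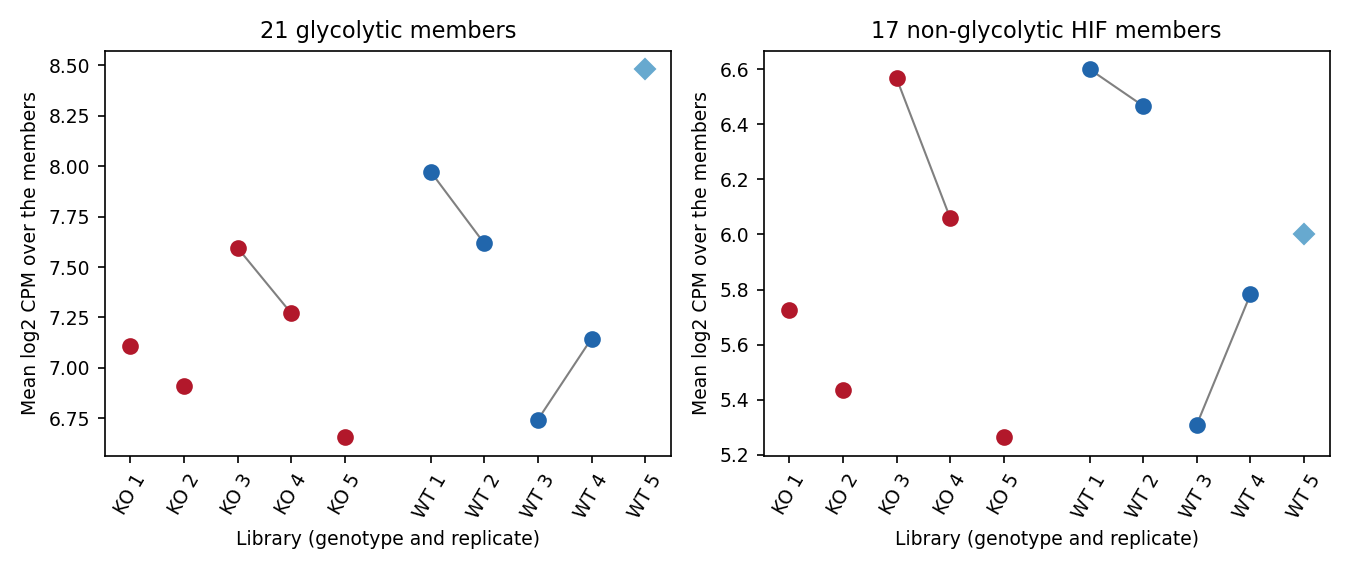
Mean log2 CPM (y axis) over the 21 glycolytic genes (left) and the 17 non-glycolytic genes (right) in each KO (red) and WT (blue) library, with grey lines joining libraries that share a leading number and a diamond for WT replicate 5. KO replicates 3 and 4 and WT replicates 1 and 2 lie above the other KO libraries and above WT replicates 3 and 4 in both panels.

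This order was seen across single genes too, and was looked for after the values had been seen. WT replicates 1 and 2 were both above WT replicates 3 and 4 in 16 of 21 glycolytic and 14 of 17 non-glycolytic genes, beside 23% of all genes. The exceptions were Hk1, Aldoa, Aldoc, Pfkfb4, Ldha, Hif1a, Epas1 and Angptl4. KO replicates 3 and 4 were both above the other 3 KO libraries in 11 of 21 glycolytic and 7 of 17 non-glycolytic genes, beside 22.5% of all genes. Both orders together held in 18 of 38 genes, beside 5.87% of all genes. These 18 were Slc2a1, Hk2, Pfkp, Tpi1, Gapdh, Pgk1, Eno2, Pkm, Pfkfb3, Slc16a1, Slc16a3, Egln1, Bnip3, Bnip3l, P4ha2, Adm, Ndrg1 and Kdm3a.

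Other cell types varied across the same libraries. The 10 fibroblast markers summed to 0.531, 0.844, 0.478, 0.427 and 0.876% of counts in KO replicates 1 to 5, against 0.0226, 0.206, 0.783, 0.689 and 0.701% in WT replicates 1 to 5. The pairs with the higher glycolytic means thus had the lower fibroblast sums within each genotype, leaving out WT replicate 5. Luminal, macrophage and red blood cell sums overlapped between KO and WT replicates 1 to 4, with macrophage markers at 0.0630 to 0.105% in KO and 0.0487 to 0.104% in WT and red blood cell markers at 0.00431 to 0.0623% in KO and 0.0110 to 0.0268% in WT. In WT replicate 5 these 2 sums were 0.108% and 0.0946%. The 12 proliferation markers separated the genotypes, at 0.0439 to 0.0944% of counts in KO and 0.104 to 0.137% in WT replicates 1 to 4, and 9 of 12 did not overlap, beside 3.87% of all genes that were lower in KO without overlap. In WT replicate 5 they summed to 0.00376%, with 12 of 12 at their lowest. Among these marker lists only Hba-a2, of red blood cells, was at 0 in WT replicate 5, and it was at 0 in at least 1 other library too. The part of fibroblasts, proliferation or other cell types in the levels of the 38 genes was not tested.

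**Figure D4:**
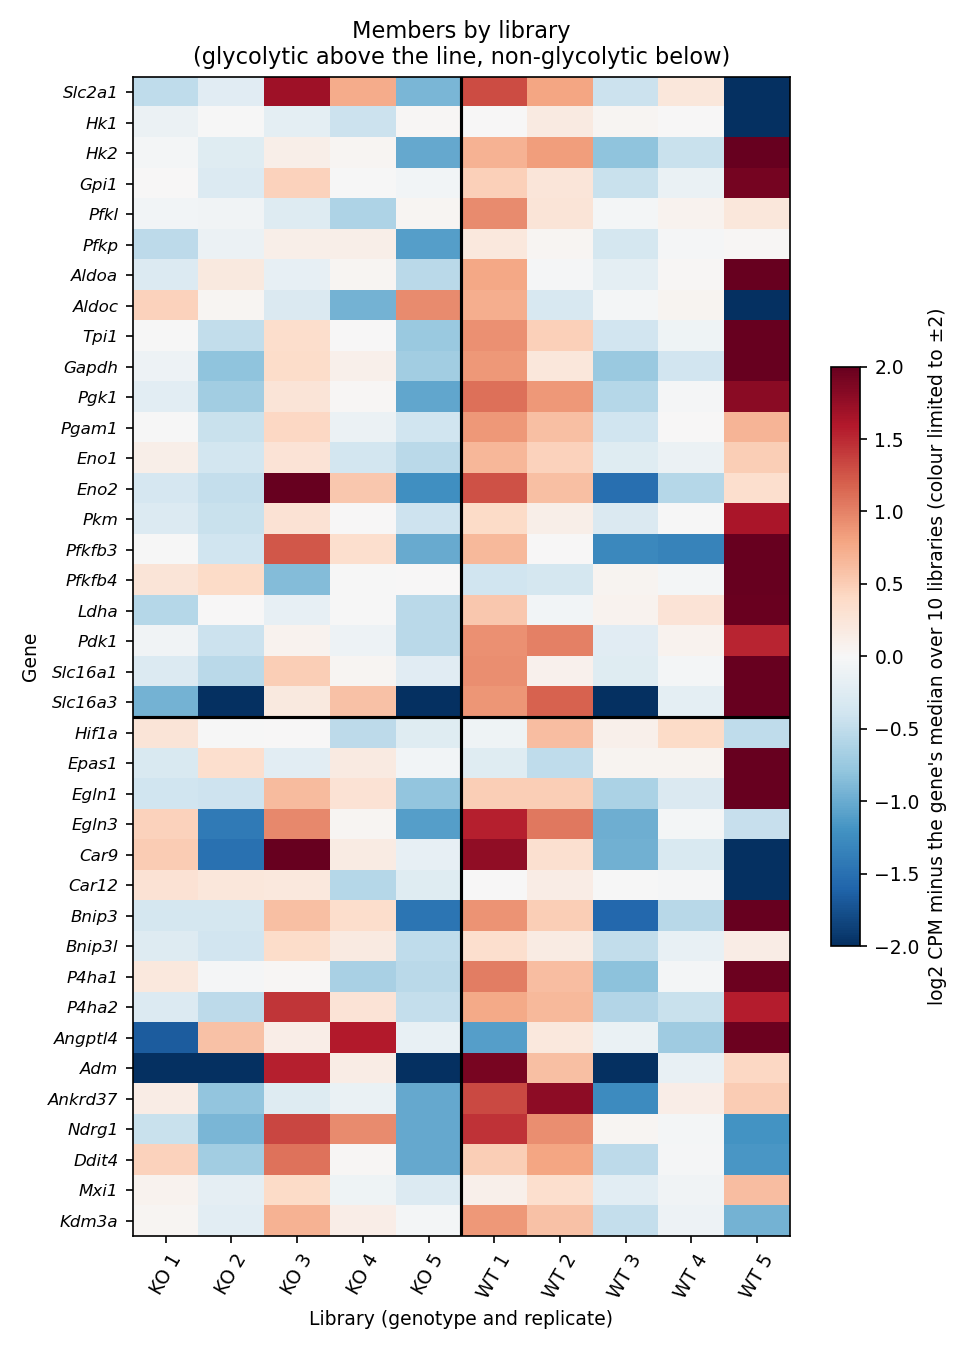
Log2 CPM of each of the 38 genes (rows) in each library (columns, KO left and WT right), as the difference from the gene's median over the 10 libraries, with the colour limited to ±2. KO replicate 3 and WT replicates 1 and 2 are red in most rows, KO replicate 5 and WT replicate 3 blue, and WT replicate 5 is at either limit in many glycolytic rows.

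WT replicate 5 was high in some members and low in others. After scaling it was above each other library in 13 of 21 glycolytic and 7 of 17 non-glycolytic genes, beside 32.3% of all genes. It was below each other library in 3 and 5 genes of the same sets, beside 36.5% of all genes. Its ratios between related genes lay far from those of the other libraries. The log2 ratio of Hk2 to Hk1 was 3.43 in WT replicate 5, whereas it ran from -3.78 to -2.28 in KO libraries and from -3.59 to -2.06 in WT replicates 1 to 4. That of Aldoc to Aldoa was -11.78 in WT replicate 5, whereas it ran from -3.16 to -0.71 in KO and from -2.48 to -2.03 in WT replicates 1 to 4. Both ratios leaned toward the isoform that muscle uses, next to the muscle marker sum of 9.83% given above. Of 12 such ratios it was above the other 9 libraries in 4 (Hk2 to Hk1, Pfkfb4 to Pfkfb3, Bnip3 to Bnip3l, Epas1 to Hif1a), below them in 2 (Aldoc to Aldoa, Egln3 to Egln1) and among them in 6. The part of muscle tissue in these values was not tested.

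Between genotypes, all 12 ratios overlapped once WT replicate 5 was left out. Ldhb encodes the heart-type subunit of lactate dehydrogenase, which favours the reverse reaction, and the ratio of Ldha to it was picked after the 12 had been seen. Its log2 value was 3.12 ± 0.55 in KO and 3.87 ± 0.65 in WT (SD, n = 5 and 4). Of the WT libraries, replicate 1 stood at 4.82, above every KO library. WT replicates 2 to 4 stood at 3.46, 3.49 and 3.69, above the KO mean but within the KO range of 2.38 to 3.84. Ldhb, which is not among the 38, averaged 128 ± 29.0 CPM in KO and 105 ± 26.4 CPM in those WT libraries.

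Of 35 other genes of glycolysis and pyruvate handling, 30 passed the filter with 10 libraries, 0 were called, and 26 had a negative log2 fold change, with a median of -1.26. With 9 libraries 15 were negative and 15 positive, with a median of 0.00, so the negative median was not seen once WT replicate 5 was left out. The 4 with the smallest p without that library, none of them called, were Pfkm, Pdk4, Pgam2 and Eno3. The muscle isoforms Pfkm, Pgam2 and Eno3 had 9-library log2 fold changes of 0.35 ± 0.12, 1.5 ± 0.67 and 1.36 ± 0.61, and Pdk4, a fasting-induced kinase of pyruvate dehydrogenase, had 2.80 ± 1.18 (edgeR adjusted p = 0.331, 0.430, 0.433 and 0.413). In KO replicate 4, the KO library with the highest muscle marker sum (0.195%), Pgam2 stood at 13.8 CPM, Eno3 at 42.1 CPM and Pdk4 at 119 CPM. Without that library the 9-library fold changes of Pgam2, Eno3 and Pdk4 were 0.57, 0.46 and 1.28. Pfkm did not follow this order: it stood at 66.6 CPM in KO replicate 4, within a KO range of 48.7 to 75.7 CPM. Its 9-library log2 fold change ran from 0.29 to 0.43 when single libraries were left out. Pdk4 stood at 3.09, 15.5, 26.0, 119 and 1.68 CPM in KO replicates 1 to 5. Adipocyte marker sums in the same order were 0.0187, 0.331, 0.0378, 0.295 and 0.0228% of counts. The part of muscle or fat in the values of these 4 genes was not tested.

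Of 35 other HIF regulators and targets, 33 passed the filter, 0 were called in either fit, and 15 had a negative log2 fold change with 10 libraries and 14 with 9, with medians of 0.09 and 0.07. Loxl4, Fam162a and Mif were among the 4 with the smallest p with 9 libraries, and none was called. Loxl4, a lysyl oxidase that cross-links collagen, stood at 1.25 ± 0.48 on the log2 scale, KO over WT (edgeR adjusted p = 0.376). Its level was very low, at 0.723 to 2.54 CPM in KO and 0.241 to 0.923 CPM in WT without replicate 5. The lowest library held 8 counts, so this fold change is imprecise. Fam162a, a mitochondrial HIF target, and Mif, a cytokine, had values of -0.60 ± 0.30 and -0.57 ± 0.28 (edgeR adjusted p = 0.475 and 0.477). Fam162a was at -0.33 without WT replicate 2 and Mif at -0.36 without WT replicate 1.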

How the data were processed

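Poly(A) RNA was taken from whole tumour tissue and made into stranded libraries, per the labels' protocols. The authors deposited raw gene counts, 1 column per library. FastQC, STAR, featureCounts, DESeq2 and the build GRCm39 are named in the submitters' processing notes. Versions, annotation release, strand setting and the handling of reads that match in several places: not given in the sources used here. There were 0 count columns without a sample.

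KO was set against WT in edgeR 4.0.16 under R 4.3.3 (TMM scaling, filterByExpr, robust quasi-likelihood F-test), with Benjamini-Hochberg adjustment over all genes tested and a threshold of 0.05. The standard error is the log2 fold change divided by the square root of F. CPM for all levels used the TMM factors of the 10 libraries. The alternatives were RLE scaling, library size only, DESeq2 1.42.0, limma-voom 3.58.1 with sample quality weights, a filter of at least 10 counts in every library, no such filter, counts summed over libraries that share a leading number, a random block for it, and leaving out each library.

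The members and lists were chosen with earlier results of these data known. Values in every library are given for the 5 members of each set with the smallest p in each fit and for Hif1a, Epas1, Slc2a1, Ldha and Pdk1, and the 4 with the smallest p without WT replicate 5 per list of other pathway genes, of which 1 is not reported here. Where a symbol had more than 1 Ensembl ID (Aldoa), the ID with more counts was used. Cell type sums are shares of unscaled counts over 8 lists of markers. Promoters are RefSeq's (GRCm38.p6), and copies were searched as 75-base windows in GENCODE transcripts (GRCm38). Both were used for letters and overlaps only, since the counts are on GRCm39.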

Additional observations from a re-analysis of the deposited data

Results flagged for a closer look

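Within groups of 5 libraries, 96 groups of values were examined for a library far from the others, of which chance flags about 1 in 20, or 4.8. That rate holds for normally distributed values, which CPM values need not be, and many of these genes vary together. The 4.8 is therefore no yardstick for the flags, and none is a test of these genes. There were 26, and 19 of them were WT replicate 5. Over all genes tested, WT replicate 5 was above each other library in 32.3% and below each other library in 36.5%. In that library the values in CPM far above the other WT libraries were Hk2 at 728, Gpi1 at 1544, Aldoa at 18048, Tpi1 at 2609, Gapdh at 6959, Pkm at 3776, Pfkfb4 at 46.9, Ldha at 5112, Slc16a1 at 315, Slc16a3 at 189.7, Epas1 at 445, Egln1 at 425 and Angptl4 at 159.9. Among other pathway genes these were Pfkm at 2673, Pdk4 at 1416, Pgam2 at 2155 and Eno3 at 5906. Hk1 at 67.8 CPM and Car12 at 5.54 CPM were far below the other WT libraries. In KO replicate 3 the values far above the other KO libraries were Eno2 at 40.2, Car9 at 129 and P4ha2 at 66.2 CPM. In KO replicate 4 they were Pdk4 at 119, Pgam2 at 13.8 and Eno3 at 42.1 CPM, and in WT replicate 1 Pfkl stood far above the other WT libraries at 681 CPM.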

How the results depend on the processing

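In every alternative tried, and without each library in turn, 0 of the 38 members were called. Few genes of any kind were called in most of them. Apart from DESeq2 and sample quality weights, whose shares are given above, the most was 3 of 37331 genes, with 9 libraries and no filter. The count of 0 therefore says little about these members. With 10 libraries the glycolytic median ran from -0.83 (without WT replicate 3) to -0.30 (without WT replicate 5) and the non-glycolytic one from -0.62 to -0.12. With 9 they ran from -0.47 to -0.11 and from -0.40 to 0.04, the last without WT replicate 1. Sample quality weights gave -0.17 and -0.03 with 10 libraries and -0.15 and -0.02 with 9 (glycolytic and non-glycolytic), and sums per leading number -1.01 and -0.50 with 10 and -0.38 and -0.26 with 9. Scaling by library size only moved the 10-library median of all genes from -0.06 to 0.07, and gave -0.39 and -0.16 for the sets.

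Some single genes changed sign. With sample quality weights and 10 libraries Hk2 was 0.013, Hk1 -0.11, P4ha1 0.078, Bnip3 0.25 and Slc2a1 -0.31, and with 9 libraries Hk2 was 0.042, P4ha1 0.087, Epas1 -0.028 and Bnip3 0.25. Angptl4 was 0.33 by library size only and 0.033 with no filter. Without 1 library, the 10-library values ran from -0.18 to 0.15 for Hk1, -1.30 to 0.16 for Epas1, -0.56 to 0.81 for Angptl4 and -0.43 to 0.53 for Slc2a1. The 9-library values ran from -0.35 to 0.038 for Egln1, -0.46 to 0.25 for Bnip3 and -0.68 to 0.22 for Slc2a1. The cause was not tested. No paired analysis was possible because no label used here links a KO library to a WT library. Replicate numbers only count libraries within a genotype, and no leading number occurs in both genotypes.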
